A study of Mus musculus with 24 samples.

Results

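The genes described here are the 4 kinases that phosphorylate the translation factor eIF2 (Eif2ak1, Eif2ak2, Eif2ak3 and Eif2ak4), the subunit they phosphorylate (Eif2s1) and the 2 subunits that direct a phosphatase back to it (Ppp1r15a and Ppp1r15b). They were chosen by gene name, with earlier results of these data known, and all 7 were found among the 15741 genes of the deposited tables. The data are RNA sequencing of liver from 24 mice in 8 groups of 3. Groups crossed genotype (wild type, WT, or mice labelled as lacking GCN2 in the whole body, KO), diet (a complete one, Control, or one devoid of leucine, LeuD) and circadian time of death (CT03 or CT15). WT mice had Control or LeuD food and died at CT03 or CT15, which makes 4 groups, and KO mice had the same 4 combinations. Every mouse, controls included, was housed alone with free access to food under a 12-h light cycle and spent 2 days on the control diet before the diets diverged at the start of a dark phase. Lights went off for good 24 h after that switch for the rest of the 8-day period, so dark housing is shared by all groups up to death. The sources used here do not give age, sex, strain, the part of Eif2ak4 that the knockout removes, or whether mice of a group were littermates. The p-values measure the spread between these individual mice.

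Phosphorylation of eIF2 slows general protein synthesis and lets a few mRNAs, such as that of the transcription factor ATF4, be translated more; this is the integrated stress response. Each kinase answers to a signal of its own. GCN2 (Eif2ak4) senses uncharged transfer RNA when amino acids are scarce, PERK (Eif2ak3) senses unfolded protein in the endoplasmic reticulum, PKR (Eif2ak2) binds double-stranded RNA and is itself induced by interferon, and HRI (Eif2ak1) is held back by heme and also relays mitochondrial stress. GADD34 (Ppp1r15a) is made during the response and ends it, whereas CReP (Ppp1r15b) is present without stress. Both bring protein phosphatase 1 to eIF2. RNA levels show neither how active a kinase is nor how much eIF2 is phosphorylated.

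The site on which all of these proteins act is serine 51 of eIF2 alpha, the product of Eif2s1, and its coding sequence is shown because it is what the kinases and the phosphatase share. In the GENCODE M21 annotation of mouse build GRCm38 the serine lies in codon 52 counted from the start codon (residue 51 without the first methionine) of a protein of 315 residues, within exon 2, at chr12:78866668-78866694 on the plus strand. The capitals mark the serine codon.
Eif2s1 serine 51 site: cttagtgaattaTCCagacgacgtatc

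RefSeq promoters (build GRCm38.p6, 250 bases before to 50 after a start) were held for 6 of the 7 genes, as 7 windows, and were searched on both strands for 6 motifs of factors linked to this pathway or to the clock. The letters were GAAA, any 2 bases and GAAA (interferon-stimulated response element, ISRE), TGATGNAA (the CARE of ATF4), CACGTG (E-box), TTATGNAA (D-box), CCAAT, any 9 bases and CCACG (ERSE) and TGACGTCA (cyclic AMP response element, CRE). Among all 32851 promoters of that length 3.44% hold the ISRE, 3.97% the CARE, 7.15% the E-box, 3.38% the D-box, 0.12% the ERSE and 1.79% the CRE. Of the 4 matches in these genes, 3 were ISREs and 1 was a CRE, and none overlapped another. They are shown because the Eif2ak2 values below run with those of interferon-stimulated genes and the Ppp1r15a values were lower at CT15 in WT livers on LeuD. In the 4 windows the motif is in capitals. The Eif2ak2 match begins 18 bases after the start (window chr17:78882535-78882564, minus strand), and the Ppp1r15a CRE begins 12 bases before it (window chr7:45526262-45526291, minus strand). The other matches begin 220 bases before the start of Ppp1r15a (window chr7:45526469-45526498, minus strand) and 212 before that of Eif2s1 (window chr12:78861850-78861879, plus strand). These are RefSeq starts. In GENCODE M21 Eif2s1 begins at chr12:78861819, so its window lies inside the gene annotated there. A match says only that these letters are there.
Eif2ak2 ISRE: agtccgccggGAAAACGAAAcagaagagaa
Ppp1r15a CRE: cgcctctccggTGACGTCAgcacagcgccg
Ppp1r15a ISRE: aaaataaaagGAAAGGGAAAtggcacggta
Eif2s1 ISRE: cctggagcaaGAAACAGAAActtacctctc

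The libraries held 34137121 to 44884200 reads, and each member had 181 to 4562 reads in a library. Hepatocyte markers, all 6 measured, summed to 78750 to 179300 RPM (a library's reads scaled to its depth), highest in KO LeuD CT15. Markers of pancreas acinar cells (9 of 10 measured) summed to 9.22 to 512 RPM in 21 libraries, and to 12160 in KO LeuD CT03 replicate 1, 6467 in KO LeuD CT15 replicate 3 and 3491 in WT LeuD CT15 replicate 1. All 3 of these acinar libraries are from LeuD mice, so called results that involve LeuD, and list counts that change, are also given without them. Levels below are normalized counts, which are reads over a size factor that puts the 24 libraries on 1 scale. Changes are log2 differences ± SE on the log2(normalized count + 1) scale, with CT15 against CT03 for time, LeuD against Control for diet and KO against WT for genotype. A change was called at a limma adjusted p (Benjamini-Hochberg over all genes of the fit) under 0.05, and only called changes are said to rise or fall. In bulk tissue, less RNA per cell and fewer cells of a type cannot be told apart.

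Set on a scale that divides by exon length and by depth (RPKM, with exon lengths from GENCODE M21), the members spanned an order that starts with the constitutive phosphatase subunit. Ppp1r15b stood at 14.5 ± 2.92 RPKM (mean ± SD, 24 libraries), Eif2s1 at 9.95 ± 1.22 and Eif2ak1 at 8.98 ± 1.54. Then came Eif2ak2 at 3.80 ± 1.26, Ppp1r15a at 2.75 ± 0.751, Eif2ak3 at 2.68 ± 0.938 and Eif2ak4 at 1.16 ± 0.189. The kinase that senses amino acid shortage was thus the lowest of the 7 per exon length, and the heme-regulated kinase the highest of the 4 kinases. Across the 24 libraries the ranges of neighbours in this order overlapped for every pair but the last, where the lowest Eif2ak3 value was 1.715 RPKM and the highest Eif2ak4 value 1.565. As shares of the 4 kinases' summed RPKM, Eif2ak1 took 54.0% on average over the 24 libraries (range 37.5% to 65.1%), Eif2ak2 22.9% (12.8% to 46.0%), Eif2ak3 16.1% (9.02% to 28.1%) and Eif2ak4 7.02% (4.89% to 9.60%). Exon lengths pool all annotated transcripts, so these values are uncertain where a liver uses only some of them.

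**Figure D1:**
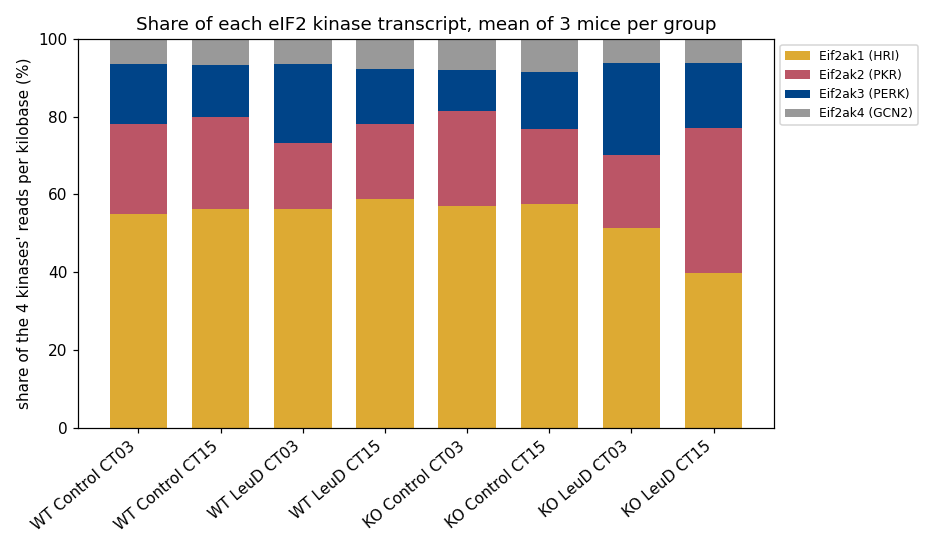
Share of each eIF2 kinase transcript in the summed RPKM of the 4 kinases (y axis, percent), as the mean of 3 mice for each of the 8 groups (x axis); colours stand for the kinases. Eif2ak1 is the largest share in all groups by the mean, and in KO LeuD CT15 it is 39.7%, close to the 37.4% of Eif2ak2.

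The make-up of the kinase pool was alike in most groups. In 7 groups the mean share of Eif2ak1 lay between 51.3% and 58.8%, and that of Eif2ak2 between 17.04% and 24.4%. In KO LeuD CT15 they were 39.7% ± 2.02 (SD, n = 3) and 37.4% ± 7.58. The share of Eif2ak3 ran from 10.6% ± 1.43 in KO Control CT03 to 23.8% ± 5.10 in KO LeuD CT03. Shares of 4 genes must sum to 100%, so one share moves with the others.

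**Figure D2:**
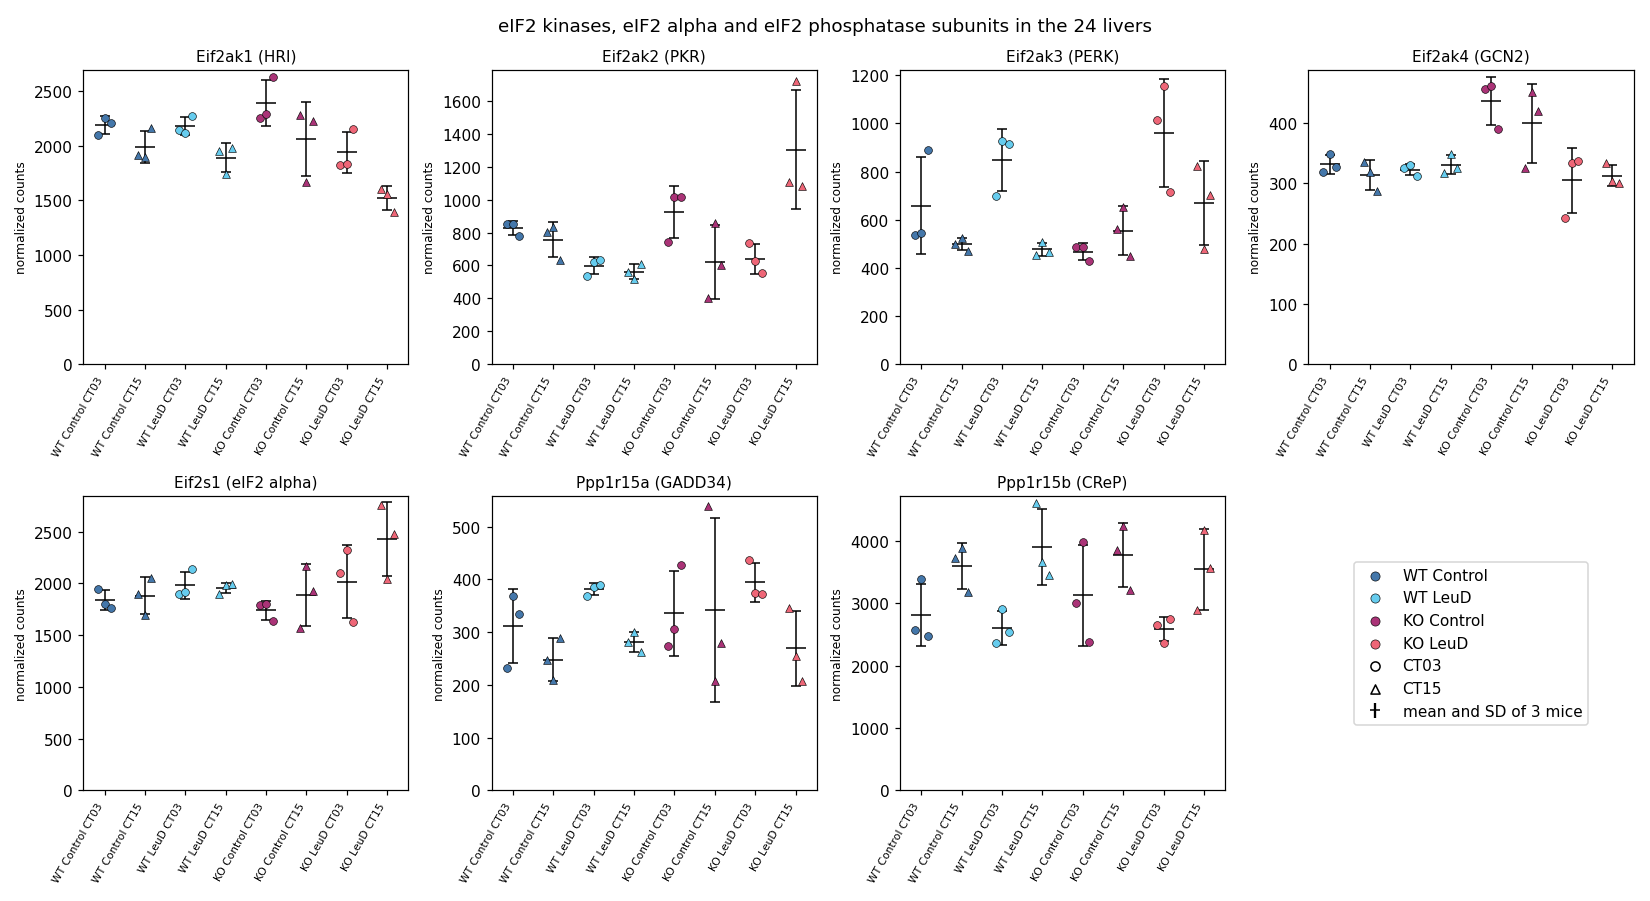
Normalized counts (y axis, from 0) of the 7 genes in each of the 24 livers, by group (x axis); points are mice, circles CT03 and triangles CT15, and the line and bar are the mean and SD of 3 mice. The 3 KO LeuD CT15 mice are above all others for Eif2ak2 (lowest 1079.8), and Eif2ak4 is as high in KO as in WT livers.

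Eif2ak4, the gene that the knockout targets, was measured in every KO liver, and 11 of the 12 KO livers were at or above the lowest WT liver (287 normalized counts). The 12 WT livers lay close together. On Control they had 319, 349 and 327 normalized counts at CT03 and 336, 319 and 287 at CT15. On LeuD they had 326, 331 and 312 at CT03 and 318, 349 and 326 at CT15. Across the 12 this is 325 ± 16.5 (SD). KO livers on Control had 458, 462 and 390.4 at CT03 and 326, 451 and 421 at CT15. KO livers on LeuD had 243, 334 and 337 at CT03 and 333, 304 and 301 at CT15. The KO livers on LeuD thus overlapped WT apart from the 243 of KO LeuD CT03 replicate 1, an acinar library. At CT03 on Control the 3 KO values were all above the 3 WT values, beside 15% of all genes without overlap. The 12 KO livers spread more widely (364 ± 71.4). Reads were counted over the whole gene and the sources used here do not say which part was deleted, so this level does not check the genotype labels; KO stands for the label throughout.

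No genotype change of Eif2ak4 was called by limma. On Control, KO minus WT was 0.39 ± 0.13 at CT03 (adjusted p = 0.57; 95% interval 0.09 to 0.68) and 0.34 ± 0.17 at CT15 (adjusted p = 0.791). The same differences on LeuD were -0.10 ± 0.17 (adjusted p = 0.814) and -0.08 ± 0.14 (adjusted p = 0.805). In the authors' deposited table the CT03 difference on Control had an adjusted p of 0.388. LeuD against Control was near zero in WT, at -0.04 ± 0.11 (CT03) and 0.08 ± 0.12 (CT15), and was -0.53 ± 0.18 (adjusted p = 0.301) and -0.35 ± 0.18 (adjusted p = 0.39) in KO. These diet effects were not shown to differ between genotypes: the differences were -0.49 ± 0.20 (adjusted p = 0.346) and -0.42 ± 0.20 (adjusted p = 0.436). The fit of all 24 libraries did call the diet difference of Eif2ak4 in KO at CT03. It was 1 of 2 members called there, beside 4.31% of all genes. The acinar library of KO LeuD CT03, replicate 1, held the lowest Eif2ak4 value of all livers (243). Averaged over genotype and time, Eif2ak4 fell on LeuD by 0.21 ± 0.07 on the log2 scale (adjusted p = 0.0473, lower in 3 of 4 pairs of groups), and this call was lost without the 3 acinar libraries (-0.15, adjusted p = 0.185). It was also called in only 6 of the 24 fits that each left out 1 library. Between CT15 and CT03 the differences lay between -0.15 and 0.05 in the 4 conditions, and the average time effect was -0.03 ± 0.07 (adjusted p = 0.76). Ordered by group mean, Eif2ak4 ran from KO Control CT03 (437 ± 40.3) to KO LeuD CT03 (305 ± 53.5), and all 7 pairs of neighbours overlapped.

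Eif2ak2 encodes PKR, and it had the widest range of the 7 genes, 4.26 times from the lowest to the highest liver. The feature of its pattern was 1 group. KO livers on LeuD at CT15 had 1108, 1723 and 1079.8 normalized counts, and WT livers on the same diet at that time had 559, 519 and 607. All 3 KO values exceeded every value in the other 21 livers, of which the highest was 1019. The KO livers were higher by 1.18 ± 0.19 (fold 2.27, adjusted p = 0.0261), the 1 call among the 28 genotype tests of the members. In this contrast 1.89% of all genes were called (1.24% called higher), and the 3 members whose groups did not overlap (Eif2ak1 lower, Eif2ak2 and Eif2s1 higher in KO) compare with 24.6% of all genes. Both acinar libraries of these groups touch the result: without them the difference was 1.30 and was no longer called (adjusted p = 0.122), with 2 mice left in each group. It was called in 2 of 6 fits that left out 1 mouse each, namely without KO LeuD CT15 replicate 1 or 2, and lay between 0.96 and 1.30 in every alternative, with adjusted p from 2.57e-06 to 0.122.

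The remaining values of Eif2ak2 set that group apart from its own controls. KO livers on LeuD at CT03 had 738, 626 and 556, and KO livers on Control had 744, 1019 and 1015 at CT03 and 405, 856 and 602 at CT15. WT livers on Control had 849, 851 and 779 at CT03 and 801, 833 and 634 at CT15, and WT livers on LeuD had 537, 623 and 632 at CT03. In the KO LeuD livers CT15 minus CT03 was 0.995 ± 0.217, short of the threshold (adjusted p = 0.0851), whereas the authors' deposited table gave an adjusted p of 0.0024. Those groups did not overlap, beside 21.9% of all genes. LeuD minus Control was 1.09 ± 0.31 in KO at CT15 (adjusted p = 0.17; 0.0238 in the authors' deposited table) and had the other sign elsewhere, at -0.53 ± 0.18 in KO at CT03 (adjusted p = 0.302). In WT it was -0.47 ± 0.11 at CT03 (adjusted p = 0.0589; 0.0104 in the authors' deposited table) and -0.42 ± 0.14 at CT15 (adjusted p = 0.262). In all 4 diet comparisons the Eif2ak2 values of the 2 groups did not overlap. The same held for 24% (WT at CT03), 18.9% (WT at CT15), 19.2% (KO at CT03) and 23% (KO at CT15) of all genes.

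Differences between these effects were tested by interaction terms over 12 libraries. The diet effect at CT15 was 1.52 ± 0.36 larger in KO than in WT (unadjusted p = 0.00116, adjusted p = 0.117). The time effect on LeuD was 1.09 ± 0.25 larger in KO (adjusted p = 0.299), and the time effect in KO was 1.63 ± 0.38 larger on LeuD than on Control (adjusted p = 0.435). None was called by limma within its 4 groups. One fit of all 24 libraries called the first and the last (adjusted p = 0.0256 and 0.0234), DESeq2 called all 3 (adjusted p = 0.00832, 0.0235 and 0.03), and edgeR called none. Without the acinar libraries the 3 differences were 1.64, 1.31 and 1.85 (limma adjusted p = 0.379, 0.924 and 1).

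**Figure D3:**
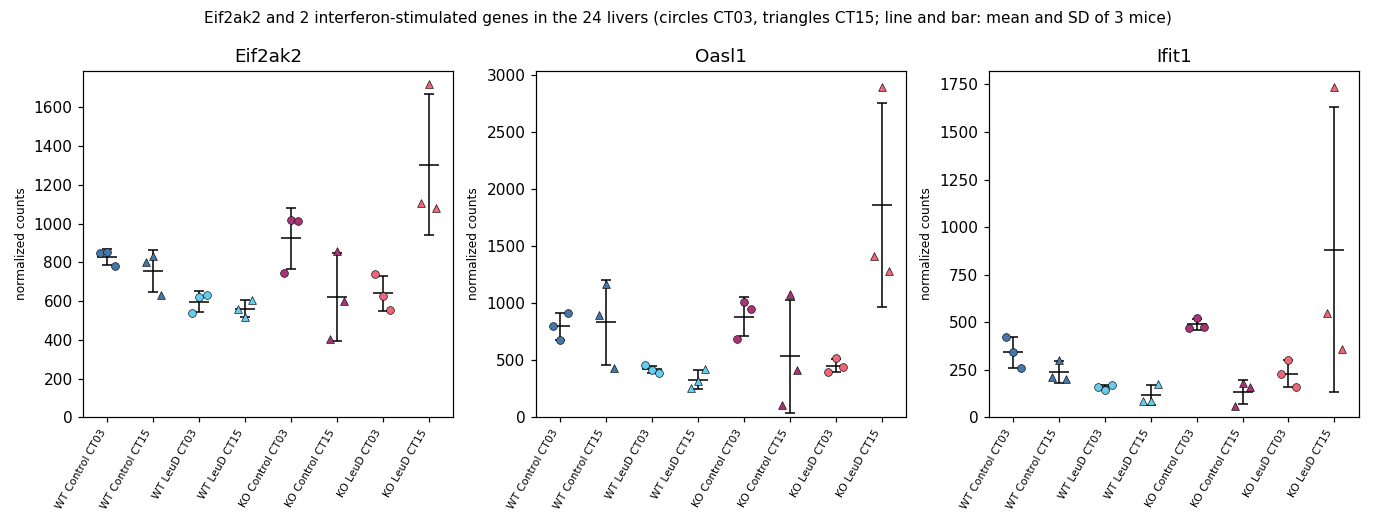
Normalized counts (y axes, from 0) of Eif2ak2 and of the interferon-stimulated genes Oasl1 and Ifit1 in the 24 livers, by group (x axis); points are mice, and the line and bar are the mean and SD of 3 mice. In KO LeuD CT15, Oasl1 is at 1861 ± 895 and Ifit1 at 882 ± 747, and 1 mouse is highest for all 3 genes.

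Genes induced by interferon moved in the same contrast. Of 20 interferon-stimulated genes, a list without Eif2ak2, 14 rose in KO over WT on LeuD at CT15 and 0 fell, with a median of 1.75 against 0.01 for all genes tested. The 4 with the lowest p were Irf9, part of the factor that interferon activates (1.41 ± 0.16), Oasl1 (2.42 ± 0.31), Ifit3 (2.26 ± 0.31) and Usp18, which damps interferon signalling (2.63 ± 0.37). Without the acinar libraries 0 of the 20 were called, all 20 were still positive and the median was 1.97; there 0.166% of all genes were called. The summed list stood at 507 to 1098 RPM in KO LeuD CT15, 278 to 346 in WT LeuD CT15, 197 to 350.0 in KO Control CT15 and 311 to 788 in KO LeuD CT03. On the Control diet at CT15, all 20 were lower in KO than in WT (median -0.65) with 0 called, and Eif2ak2 was -0.34 ± 0.27 (adjusted p = 0.793). In the diet comparison of WT livers at CT03, Oasl1 (-0.91 ± 0.13) and Ifit1 (-1.08 ± 0.19) fell. Over the 24 libraries the 3 genes most like Eif2ak2 among 11943 genes were Gm6548 (Pearson r = 0.938), Oasl1 (0.937) and Ifit1 (0.915).

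Cell markers beside these values were as follows. Macrophage (Kupffer cell) markers, all 7 measured, summed to 213 to 487 RPM in KO LeuD CT15 and 321 to 557 in WT LeuD CT15. Lymphocyte markers, all 8 measured, summed to 1.04 to 3.23 and 3.37 to 7.20. Lymphocyte markers were thus lower in the group with high Eif2ak2 and Kupffer cell markers overlapped, and no member of either list was called in that contrast. Endothelial markers (6 measured) summed to 187 to 262 RPM in KO LeuD CT15 and 281 to 309 in WT LeuD CT15, and stellate cell markers (6 measured) to 184 to 276 and 284.5 to 300.3. Hepatocyte markers summed to 154300 to 179300 and 108300 to 131800, so these 3 sums did not overlap, though none of their members was called. Bile duct markers overlapped (33.0 to 46.8 and 29.97 to 44.9 RPM), with 2 of 5 positive and 1 called higher, Sox9, a call lost without the acinar libraries. The part of these cell types in the Eif2ak2 result was not tested. The acinar library of KO LeuD CT15 was replicate 3, which held the lowest Eif2ak2 value of the 3 KO mice. In the group order of Eif2ak2, KO LeuD CT15 (1304 ± 363) was separated from the next group, KO Control CT03 (926 ± 157), and the other 6 pairs of neighbours overlapped, down to WT LeuD CT15 (562 ± 44.1).

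Eif2ak3, the gene of PERK, was lower at CT15 than at CT03 in livers of WT mice on LeuD. The CT03 livers had 698, 927 and 916 normalized counts and the CT15 livers 455, 509 and 466. Each CT03 value exceeded each CT15 value. The fall was 0.82 ± 0.13 on the log2 scale (fold 0.567, adjusted p = 0.00791; 95% interval -1.12 to -0.51), and the authors' deposited table gave -0.83 with an adjusted p of 6.78e-06. It was the firmest result of the 7 genes within a pair of groups: all 8 alternatives and all 6 fits without 1 mouse kept the call, with changes of -0.95 to -0.75 and adjusted p of at most 0.0467. Without the acinar library it was -0.79 (adjusted p = 0.0254). It is 1 of 3 members called for time in WT LeuD, where 9.61% of all genes were called, and 1 of 4 whose groups did not overlap, against 31.3% of all genes.

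In other conditions the time difference of Eif2ak3 was not called. WT livers on Control had 538, 545 and 891 at CT03 and 501, 523 and 472 at CT15, a difference of -0.36 ± 0.20 (adjusted p = 0.391), with 1 high mouse at CT03. KO livers on LeuD had 1012, 1154 and 714 at CT03 and 822, 478 and 704 at CT15, which gave -0.54 ± 0.25 (adjusted p = 0.338). KO livers on Control went the other way, with 489, 486 and 427 at CT03 and 561, 654 and 448 at CT15 (0.23 ± 0.18, adjusted p = 0.649). None of the 4 interaction terms with time was called: time by diet was -0.46 ± 0.25 in WT (adjusted p = 0.828) and -0.76 ± 0.33 in KO (adjusted p = 0.758), and time by genotype was 0.59 ± 0.28 on Control (adjusted p = 0.977) and 0.29 ± 0.31 on LeuD (adjusted p = 0.794). Over all 24 libraries Eif2ak3 fell at CT15 by 0.37 ± 0.11 (adjusted p = 0.0157), with the same sign in 3 of 4 conditions.

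The diet difference was largest in KO livers at CT03, where LeuD minus Control was 1.01 ± 0.20 (fold 2.01). The KO Control values of 427 to 489 lay below the KO LeuD values of 714 to 1154, beside 19.2% of all genes without overlap. Limma called 0% of all genes there (14.6% had an unadjusted p under 0.05). The adjusted p of the difference was 0.205, and in the authors' deposited table it was 0.00129. The fit of all 24 libraries called it (adjusted p = 0.0129), as did limma without KO LeuD CT03 replicate 3, the lowest of its group (adjusted p = 0.014), whereas without the acinar library, replicate 1, it was 0.956 (adjusted p = 0.708). In WT the diet difference was 0.39 ± 0.21 at CT03 (adjusted p = 0.367) and -0.06 ± 0.11 at CT15 (adjusted p = 0.85). The average diet effect was a rise of 0.40 ± 0.11 (adjusted p = 0.0176), higher on LeuD in 3 of 4 pairs. Without the 3 acinar libraries both averages narrowly missed the threshold, time at -0.36 (adjusted p = 0.0524) and diet at 0.38 (adjusted p = 0.0756). Between genotypes the groups did not overlap on Control at CT03, beside 15% of all genes. There KO minus WT was -0.46 ± 0.20 (adjusted p = 0.619), and no genotype difference was called. Group means ran from KO LeuD CT03 (960.0 ± 225) to KO Control CT03 (467 ± 34.8), and all 7 pairs of neighbours overlapped.

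Some chaperones and degradation factors of the endoplasmic reticulum, targets of the unfolded protein response, also fell with time in WT livers on LeuD. Of 16 such genes, 7 fell, 0 rose and 9 were not called, beside 5.29% of all genes called lower. Their median was -0.51 against 0.01 for all genes. Without the acinar library 5 fell (median -0.58), beside 6.54% of all genes called in either direction. The lowest p values belonged to Syvn1, a ubiquitin ligase that clears misfolded protein (-0.81 ± 0.11), Pdia4, a disulfide isomerase (-0.87 ± 0.12), the chaperone Hyou1 (-0.94 ± 0.14) and Manf (-0.86 ± 0.15). In WT livers on Control 2 of 16 fell (Sdf2l1 and Manf), beside 1.42% of all genes called. In either KO time comparison 0 were called. For the average time effect 7 of 16 fell, beside 13.1% of all genes called lower. Without the acinar libraries 2 fell, beside 19.4% of all genes called in either direction. In KO livers at CT03 all 16 were higher on LeuD (median 0.50) with 0 called, and without the acinar library, KO LeuD CT03 replicate 1, 13 were higher (median 0.32). Syvn1 was also the gene most like Eif2ak3 over the 24 libraries (r = 0.84), before Ticam1 (0.839) and Eif1a (0.835). WT livers on LeuD had 3066 ± 392 normalized counts of Syvn1 at CT03 and 1737 ± 17 at CT15.

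Eif2ak1, the gene of HRI, was the most abundant kinase transcript, and limma called none of its changes within a pair of groups. Its 24 values lay between 1397 and 2633 normalized counts. The lowest 3 were those of KO LeuD CT15, with 1603, 1557 and 1397, against 1955, 1737 and 1979 in WT LeuD CT15, 1825, 1837 and 2157 in KO LeuD CT03, and 2284, 1669 and 2227 in KO Control CT15. KO LeuD CT15 did not overlap with any of these 3 groups, beside 24.6%, 21.9% and 23% of all genes in that order. The differences were -0.32 ± 0.12 for genotype (adjusted p = 0.203), -0.36 ± 0.14 for time (adjusted p = 0.262) and -0.44 ± 0.17 for diet (adjusted p = 0.262), and none was called. The fit of all 24 libraries called the diet difference (-0.43, adjusted p = 0.0256).

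The remaining 4 groups of Eif2ak1 lay between 1893 and 2633 normalized counts. KO livers on Control at CT03 had 2252, 2294 and 2633. WT livers at CT03 had 2096, 2256 and 2209 on Control and 2141, 2119.7 and 2273 on LeuD, and WT livers on Control at CT15 had 1912, 1893 and 2158. LeuD minus Control was -0.01 ± 0.08 in WT at CT03 and -0.07 ± 0.10 at CT15. The order of group means ran from KO Control CT03 (2393 ± 209) to WT LeuD CT15 (1891 ± 133) with 6 pairs of neighbours overlapping, and KO LeuD CT15 (1519 ± 108) stood apart below.

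Averaged over the other factors, Eif2ak1 fell at CT15 by 0.23 ± 0.06 (adjusted p = 0.00549) and fell on LeuD by 0.20 ± 0.06 (adjusted p = 0.0219), with the same sign in 4 of 4 conditions each. The time effect was called in all 7 alternatives and in all 24 fits without 1 library, at -0.25 to -0.19. The diet effect was lost only without the acinar libraries (-0.18, adjusted p = 0.0942). HRI is best known from red cell precursors, and erythroid markers moved with diet too. Of 6 measured (7 listed) all 6 fell on LeuD on average, beside 6.78% of all genes called lower. Without the acinar libraries 5 fell, beside 7.59% of all genes called in either direction. With time 0 of the 6 fell on average and 1 rose, Slc4a1 (1.04 ± 0.34), beside 24.9% of all genes called. Without the acinar libraries 0 of these markers were called for time, and 5 of 6 were positive. Their sum was 212 to 462 RPM in Control livers and 78.2 to 275.5 in LeuD livers, and the defining globin genes were present rather than at 0. Their part in the Eif2ak1 values was not tested. The 3 genes most like Eif2ak1 over the 24 libraries were Tgds (r = 0.879), Crbn (0.877) and Wdtc1 (0.869).

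Eif2s1, which encodes the phosphorylated subunit itself, had the lowest coefficient of variation of the 7 genes over the 24 livers. This was 13.9%, close to the 14.3% of Eif2ak1. Within groups its SD on the log2 scale was 0.163, above those of Eif2ak1 (0.13) and Eif2ak4 (0.151). Eif2s1 was called in 0 of 21 tests by limma (1 unadjusted p under 0.05, for the average diet effect) and in 0 by edgeR and DESeq2. The highest group was KO LeuD CT15, with 2752, 2044 and 2481 normalized counts, against 1901, 1981 and 1992 in WT LeuD CT15. Those groups did not overlap, beside 24.6% of all genes. KO minus WT was 0.30 ± 0.13 (adjusted p = 0.276, 95% interval -0.005 to 0.602). KO LeuD CT03 had 2101, 2319.8 and 1629, and WT LeuD CT03 had 1899, 1918 and 2134. Control livers ranged from 1571 to 2169 in KO and from 1691 to 2052 in WT. The average diet effect was 0.18 ± 0.07 (adjusted p = 0.0782), higher on LeuD in 4 of 4 pairs, and the average time effect was 0.10 ± 0.07 (adjusted p = 0.314). All 7 neighbours in the order from KO LeuD CT15 (2426 ± 358) to KO Control CT03 (1742 ± 91.5) overlapped. The genes with the most similar pattern were Ranbp1 (r = 0.857), Eif4a1, the helicase of translation initiation (0.855), and Arf1 (0.854).

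Other parts of the eIF2 machinery were measured beside it. Of 12 genes for the remaining eIF2 subunits, the exchange factor eIF2B and related initiation factors, 1 was called in the 12 comparisons of a pair of groups: Eif5, the factor that makes eIF2 hydrolyse GTP, fell with time in WT LeuD (-0.47 ± 0.10). In that comparison 9.61% of all genes were called. Without the acinar library 1 of the 12 was called lower and 1 higher there, beside 6.54% of all genes. The group means of Eif5 ran from 11782 ± 1487 normalized counts in KO Control CT03 to 5433 ± 1326 in KO LeuD CT15. For the average time effect Eif5 fell (-0.45 ± 0.08), and the eIF2B subunits Eif2b1 (0.30 ± 0.06) and Eif2b3 (0.35 ± 0.11) rose. These calls, 2 higher and 1 lower of 12, stand beside 24.9% of all genes called. On the average diet effect Eif5 fell (-0.36 ± 0.08), and Eif2a (0.24 ± 0.06) and Eif2b4 (0.20 ± 0.06) rose, beside 13.9% of all genes called. Without the acinar libraries 1 higher and 1 lower call were kept in number, beside 7.59% of all genes.

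Ppp1r15a and Ppp1r15b, the 2 targeting subunits of the eIF2 phosphatase, were called for time in opposite directions in WT livers on LeuD. Neither was called for time in another pair of groups. In WT livers on LeuD, Ppp1r15a (GADD34) had 369, 385 and 390.2 normalized counts at CT03 and 282, 299.9 and 263 at CT15. There Ppp1r15b (CReP) had 2359.7, 2908 and 2542 at CT03 and 4604, 3654 and 3454 at CT15. Neither gene's groups overlapped, beside 31.3% of all genes without overlap. Ppp1r15a fell by 0.44 ± 0.11 (fold 0.737, adjusted p = 0.0451) and Ppp1r15b rose by 0.58 ± 0.13 (fold 1.49, adjusted p = 0.0312); the authors' deposited table gave adjusted p of 0.035 and 0.00187. In that comparison 5.29% of all genes were called lower and 4.32% higher. Both calls sit near the threshold. Without the acinar library, WT LeuD CT15 replicate 1, the changes were -0.44 (adjusted p = 0.0886) and 0.45 (adjusted p = 0.063), and that library holds the highest Ppp1r15b value of all 24. Of the 6 fits without 1 mouse, 0 kept the call for Ppp1r15a and 1 for Ppp1r15b, the fit without WT LeuD CT15 replicate 3.

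In KO livers on LeuD the signs were the same: Ppp1r15a had 437, 373 and 373 at CT03 and 346, 255 and 207 at CT15 (-0.58 ± 0.22, adjusted p = 0.245), and Ppp1r15b had 2646, 2366 and 2744 against 2887, 4179 and 3565 (0.44 ± 0.17, adjusted p = 0.266). Neither pair of groups overlapped, beside 21.9% of all genes without overlap, and neither change was called. Without the acinar libraries the Ppp1r15a difference was -0.34 and that of Ppp1r15b 0.44. In WT livers on Control, Ppp1r15a had 232, 368 and 334 at CT03 and 246, 209 and 289 at CT15, and Ppp1r15b had 2571, 3385 and 2472 against 3731, 3881 and 3183; both overlapped. KO livers on Control were the most scattered. There Ppp1r15a had 273, 307 and 427 at CT03 and 539.6, 207 and 280.4 at CT15, a difference of -0.07 ± 0.36, and Ppp1r15b had 3005, 3988 and 2383 against 3849, 4239 and 3218 (0.29 ± 0.21).

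Over all 24 libraries Ppp1r15b rose at CT15 by 0.42 ± 0.09 (fold 1.34, adjusted p = 0.00179), with the same sign in 4 of 4 conditions and a call in all 7 alternatives and all 24 fits without 1 library. The 12 CT03 livers ran from 2359.7 to 3988 (median 2608) and the 12 CT15 livers from 2887 to 4604 (median 3693). Ppp1r15a was -0.35 ± 0.13 (adjusted p = 0.0604), with a negative log2 difference in each condition, although in KO Control the mean normalized count was 342 at CT15 and 336 at CT03 and the authors' deposited table gave a change of 0.02. Diet and genotype gave no call for either gene in any comparison: the average diet effects were 0.13 ± 0.13 for Ppp1r15a (95% interval -0.15 to 0.40) and -0.08 ± 0.09 for Ppp1r15b (-0.27 to 0.10). Average genotype effects were 0.10 ± 0.13 and 0.01 ± 0.09. The order of group means put all 4 CT15 groups above all 4 CT03 groups for Ppp1r15b, from WT LeuD CT15 (3904 ± 615) to KO LeuD CT03 (2585 ± 196), though each of the 7 neighbours overlapped. For Ppp1r15a it ran from KO LeuD CT03 (394 ± 36.7) to WT Control CT15 (248 ± 40.1), and neighbours overlapped likewise. Their nearest genes were Aaed1 (r = 0.843), S1pr3 (0.83) and Ppp2r2d, a regulatory subunit of another phosphatase (0.802), for Ppp1r15a and Zfp970 (0.85), Wdr82 (0.848) and Snrk (0.844) for Ppp1r15b.

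Partners of these subunits were measured as 9 genes (catalytic and other subunits of protein phosphatase 1, and actin, which joins the complex). Of the 9, Actg1 alone rose with time in WT LeuD (0.93 ± 0.14), beside 9.61% of all genes called. It also fell on LeuD in WT at CT03 (-0.75 ± 0.15), beside 2.24% of all genes. Ppp1r11 rose slightly with diet on average (0.18 ± 0.05), beside 13.9% of all genes, a call lost without the acinar libraries. Of 20 regulators of the kinases, Map3k20 (-0.48 ± 0.12) and Hspa5, the chaperone that holds PERK inactive (-0.59 ± 0.14), fell with time in WT LeuD. This is 2 of 20, beside 9.61% of all genes called. Without the acinar library 0 were called there, beside 6.54% of all genes. For the average time effect 2 of the 20 rose and 3 fell (3 and 3 without the acinar libraries), among them the chaperone Hsp90aa1 (0.88 ± 0.16) and Map3k20 (-0.48 ± 0.11), beside 24.9% of all genes. On the average diet effect 3 of 20 rose and 0 fell, beside 13.9% of all genes called: Rplp1 (0.56 ± 0.07), Rplp0 (0.47 ± 0.07) and Rplp2 (0.39 ± 0.06), the ribosomal stalk proteins that can activate GCN2. These 3 counts were the same without the acinar libraries.

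**Figure D4:**
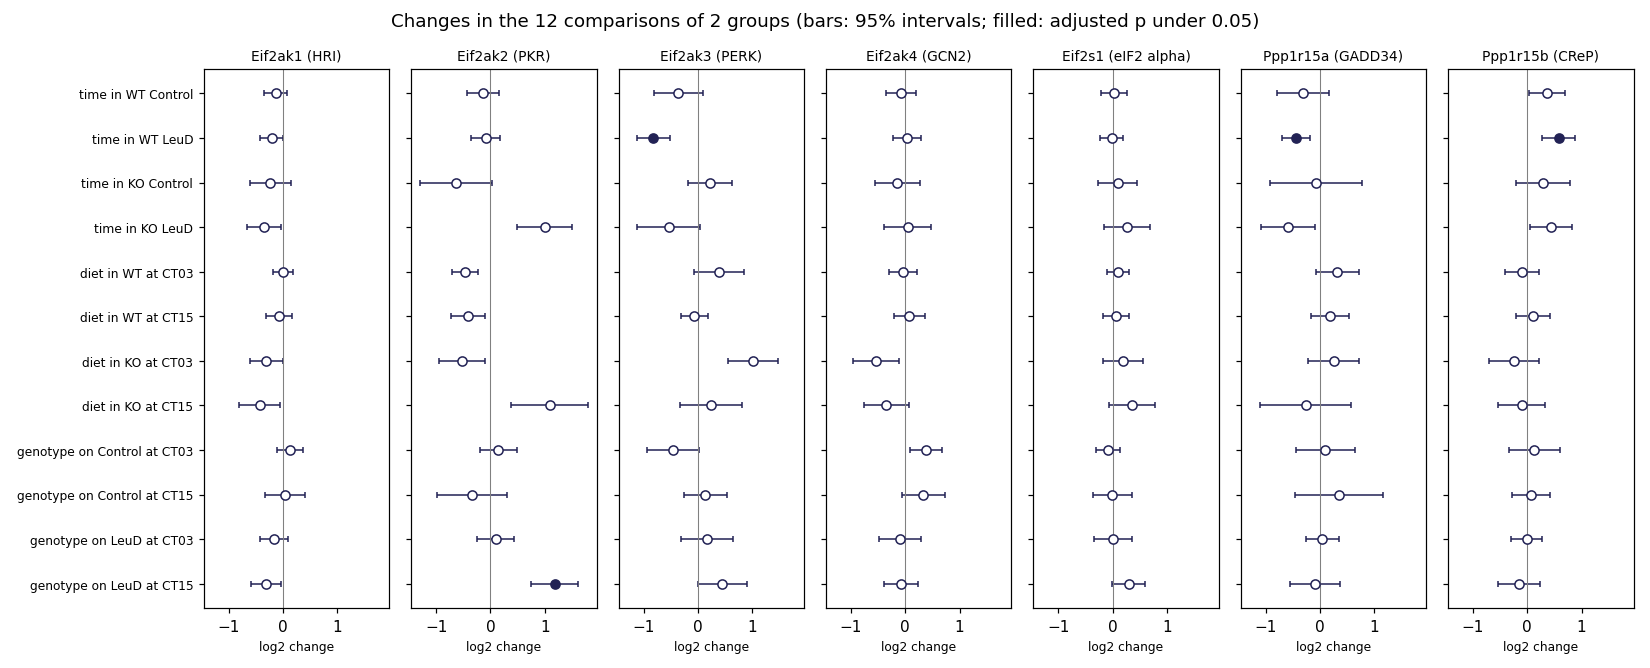
Log2 change (x axes) of the 7 genes in the 12 comparisons of a pair of groups (rows), from limma; bars are 95% intervals and filled points have an adjusted p under 0.05. The 4 filled points are Eif2ak3, Ppp1r15a and Ppp1r15b for time in WT LeuD and Eif2ak2 for genotype on LeuD at CT15.

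By factor, time gave 3 calls among 28 tests, all in WT LeuD, and 8 at an unadjusted p under 0.05. In the other time comparisons 0 of 7 members were called, where 1.42% (WT Control), 0.0407% (KO Control) and 0.805% (KO LeuD) of all genes were. Groups did not overlap for 1 member in WT Control (Eif2ak3), 0 in KO Control and 4 in KO LeuD (Eif2ak1, Eif2ak2, Ppp1r15a and Ppp1r15b), beside 23.9%, 19.9% and 21.9% of all genes. Diet gave 0 calls in 28 tests by limma, 8 at an unadjusted p under 0.05, 0 by edgeR and 3 by DESeq2 (Eif2ak2 in WT at CT03 and in KO at CT15, and Eif2ak3 in KO at CT03). The shares of all genes called for diet were 2.24% (WT at CT03), 0.186% (WT at CT15), 0% (KO at CT03) and 0.0202% (KO at CT15). Groups did not overlap for 2, 1, 4 and 2 members in that order, the 4 in KO at CT03 being the 4 kinases, beside 24%, 18.9%, 19.2% and 23% of all genes.

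Genotype gave 1 call in 28 tests and 3 at an unadjusted p under 0.05. On Control at CT03 and CT15 and on LeuD at CT03, 0 members were called by limma, edgeR or DESeq2, beside 0.0136%, 0.0798% and 0.0416% of all genes. Eif2ak3 (lower in KO) and Eif2ak4 (higher in KO) did not overlap on Control at CT03, beside 15% of all genes, and none of the members was free of overlap in the other pair, beside 13.3% and 19.4%. The 42 tests of a difference between effects gave 0 calls by limma and by edgeR, 5 at an unadjusted p under 0.05, and 3 by DESeq2, all of Eif2ak2. Of all genes, 0.00693% were called for time by diet in WT and 0% in KO, 0.0277% for time by genotype on Control and 0.0208% on LeuD, and 0% and 0.104% for diet by genotype at CT03 and CT15. The median change of the 7 members ran from -0.25 to 0.12 over the 12 comparisons, and that of all genes from -0.01 to 0.01.

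**Figure D5:**
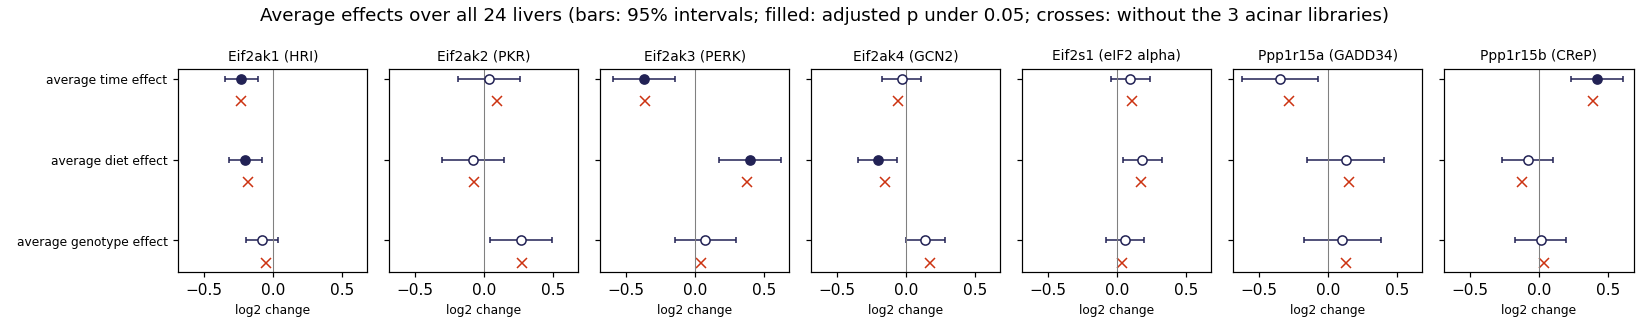
Average effects (log2 change, x axes) of time, diet and genotype (rows) on the 7 genes over all 24 livers, from limma; bars are 95% intervals, filled points have an adjusted p under 0.05, and crosses are the values without the 3 acinar libraries. The 6 filled points are Eif2ak1, Eif2ak3 and Ppp1r15b for time and Eif2ak1, Eif2ak3 and Eif2ak4 for diet, and each cross lies within the interval.

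The averages gave 6 calls in 21 tests. For time 3 of 7 members were called beside 24.9% of all genes (2 lower beside 13.1%, 1 higher beside 11.9%), and for diet 3 of 7 beside 13.9% (2 lower beside 6.78%, 1 higher beside 7.16%). For genotype 0 of 7 were called by limma, edgeR or DESeq2 beside 2.48%, and 1 (Eif2ak2, 0.27 ± 0.11, adjusted p = 0.19) had an unadjusted p under 0.05. Without the acinar libraries the called members were 2, Eif2ak1 and Ppp1r15b for time, while the shares of all genes called were 19.4% for time and 7.59% for diet.

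The transcriptional targets of the integrated stress response, which all 4 kinases feed, were measured alongside. Of 30 measured (32 listed), 6 rose and 0 fell on LeuD in WT at CT03, beside 2.24% of all genes called. The lowest p values belonged to the transcription factor Atf5 (1.44 ± 0.18), the serine synthesis enzyme Psat1 (2.62 ± 0.33), the pseudokinase Trib3 (2.29 ± 0.40) and Gars (0.50 ± 0.09). At CT15 in WT, 3 rose (Asns, Psat1 and Fgf21), beside 0.186% of all genes called. Without the acinar library 1 rose there, beside 0.0796% of all genes. In KO, 0 of 31 measured were called on LeuD at either time, where limma called 0% and 0.0202% of all genes. At CT03 26 of the 31 were positive in KO (median 0.57), as were 26 of 30 in WT (median 0.48), and at CT15 the medians were 0.24 in KO and 0.49 in WT. In the fit of all 24 libraries 622 and 1221 genes of 14420 were called for diet in KO at CT03 and CT15. In WT they were 24 and 3, so the counts of calls do not show that the genotypes differ in response to diet. Between genotypes on LeuD at CT15, Asns was higher in KO (1.68 ± 0.215) and Trib3 lower (-1.22 ± 0.181), beside 1.89% of all genes called. Without the acinar libraries 1 of the 30 was called higher there and 0 lower, beside 0.166% of all genes. Averaged over diet and time, Asns was higher in KO (1.71 ± 0.32), beside 2.48% of all genes called. On average over genotype and time, 16 of the 30 targets rose and 1 fell on LeuD, beside 13.9% of all genes called. Without the acinar libraries 9 rose and 0 fell, beside 7.59%. The average rise of Eif2ak3 and falls of Eif2ak1 and Eif2ak4 on LeuD were not called without those libraries. Ppp1r15a, itself known as a target of this response, was 0.32 ± 0.17 higher on LeuD in WT at CT03 (adjusted p = 0.385) and was not called. Its groups did not overlap there, beside 24% of all genes.

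Among the members, the pairs with the strongest correlations over the 24 libraries were Eif2ak1 with Eif2s1 (Pearson r = -0.724), Eif2ak3 with Ppp1r15b (-0.552), Eif2ak1 with Ppp1r15a (0.509) and Ppp1r15a with Ppp1r15b (-0.489). These points share groups, depth and the acinar libraries, so the correlations are given as a description. Since the library kit does not mark strand, reads of genes on the opposite strand count toward a member where exons overlap. On GRCm38 this concerns 11.4% of the exon bases of Ppp1r15b (Gm26616), 8.6% of Eif2ak1 (Aimp2) and a further 3% (Ankrd61), 8% of Eif2ak3 (Gm43292), 3.4% (Gm26637) and 0.9% (n-R5s29, a ribosomal RNA) of Eif2ak2 and 0.4% of Ppp1r15a (Tulp2), and none of Eif2ak4 or Eif2s1.

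The genes lie apart in the genome, at positions given for GRCm38 because the authors' build was not held. Eif2ak1 (ENSMUSG00000029613) is at chr5:143817788-143904251 on the plus strand, Eif2ak2 (ENSMUSG00000024079) at chr17:78852564-78882573 on the minus strand and Eif2ak3 (ENSMUSG00000031668) at chr6:70844515-70905245 on the plus strand. Eif2ak4 (ENSMUSG00000005102) is at chr2:118388618-118475234 and Eif2s1 (ENSMUSG00000021116) at chr12:78861819-78887010, both on the plus strand. Ppp1r15a (ENSMUSG00000040435) is at chr7:45522916-45526268 on the minus strand and Ppp1r15b (ENSMUSG00000046062) at chr1:133131143-133139783 on the plus strand. The 7 genes thus lie on 7 chromosomes.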

How the data were processed

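The submitters' processing notes name build GRCm39 and the tools DESeq2, DESeq, featureCounts, STAR 2.5.2b, Subread 1.5.2 and Trimmomatic 0.36; roles, settings and annotation: not given in the sources used here. Per the file headers, each of 10 deposited tables compares a pair of groups of 3 libraries and holds the authors' log2 fold change, p-value and adjusted p beside values per library. The library values are a deposited signal: counts per gene over a size factor set in each table. Whole reads were recovered from it (100% of values within 0.01 of a whole number), and 0 reads differed between tables sharing a library. No 2 libraries of a group were alike within sampling noise (lowest chi-square over its degrees of freedom 34.2).

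The test was limma 3.58.1, with its variance trend, on log2(normalized count + 1), 2-sided, within each table. Genotype on LeuD, differences between effects and averages used the 14420 genes with reads for all 24 libraries, over median-ratio size factors. edgeR 4.0.16, DESeq2 1.42.0, other scalings and filters, a replicate block and fits without libraries were alternatives. The scripts were tested on simulated counts. Same-numbered mice were not shown to be paired. Lists matched 161 of 164 symbols. Members and lists were chosen with earlier results of these data known. Named were all members, at most 4 called genes per list with the lowest p, and the 3 genes most correlated with each member among genes with a mean of at least 50.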

Additional observations from a re-analysis of the deposited data

How the results depend on the processing

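Of 33 pairs of a gene and a comparison with an unadjusted p under 0.05, 0 changed sign under 642 alternative values; 575 kept their side of the threshold, 45 lost a call and 22 gained one. For time, 3 calls became 1 with a replicate block and 1 without the acinar libraries, 2 in 1 fit of all 24 libraries (which called neither Ppp1r15a nor Ppp1r15b in WT LeuD) and 4 with DESeq2, and 1 to 3 when 1 library was left out. For diet, 0 calls became 4 in 1 fit of all 24 libraries and 3 with DESeq2, and 0 to 1 with 1 library left out. For genotype, 1 call became 0 with a replicate block and 0 without the acinar libraries, and 0 to 1 with 1 library left out. For differences between effects, 0 calls became 2 in 1 fit of all 24 libraries and 3 with DESeq2. For the averages, 6 calls became 2 without the acinar libraries. The cause of these changes was not tested, except that leaving out libraries also leaves fewer mice.

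The replicate numbers share only a number: deviations of same-numbered mice correlated at -0.502 to 0.507, and in 0 of 12 comparisons was every pair over 0.1. The blocked fit called Eif2ak3 for time in WT LeuD, and not Ppp1r15a (adjusted p = 0.114), Ppp1r15b (adjusted p = 0.09) or, for genotype on LeuD at CT15, Eif2ak2 (adjusted p = 0.0832). With 3 mice a group, differences of the size seen for Eif2ak4 between genotypes were not resolved.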
